A study of Mus musculus with 10 samples.

Results

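Internal peaks are ATAC-seq peaks in the body of a protein-coding gene, away from its ends. They were taken as autosomal peaks whose summit lay inside a protein-coding gene shorter than 300 kb, inside no coding gene of 300 kb or more, and more than 1 kb from both ends of every protein-coding and lncRNA gene. Gene positions were those of RefSeq on GRCm38.p6, and no measured value entered the choice. The rule took 30458 of 100826 autosomal peaks in Smchd1 del/del females (30.2%), 39153 of 126111 in Smchd1 fl/fl females (31.0%), 25890 of 86015 in Smchd1 del/del males (30.1%) and 29155 of 98744 in Smchd1 fl/fl males (29.5%). With the X and Y chromosomes these lists held 104316, 130103, 88159 and 101322 peaks in the same order. The 1 kb limit cut through a continuous series: 436, 547, 389 and 436 internal peaks had a summit at most 100 bp beyond it, and 489, 590, 448 and 449 peaks inside a coding gene fell short of it by less than 100 bp and were left out.

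Neural stem cell lines had been established from embryos of C57BL/6 mice at E14.5, in which both Smchd1 alleles were floxed. Per the labels' protocols a retrovirus with Cre recombinase and a puromycin marker was used, selection began after 24 h and cells were taken at 7 days. The protocol does not tell the genotypes apart, so what the fl/fl control cells were given is not known here. ATAC-seq, in which the Tn5 transposase cuts and tags open DNA, was run on 3 del/del female, 3 fl/fl female, 2 del/del male and 2 fl/fl male libraries, and the authors called 1 list of peaks per group after pooling its libraries. One label of the 4 male libraries reads female, while their titles and their sex field read male, and the titles were followed. Of 4 Y-linked genes looked at, 3 (Ddx3y, Eif2s3y and Uty) had a peak within 1 kb of an end in each male list, and 0 of 4 in either female list. No value below therefore has a replicate error, and no difference between genotypes was tested. Intervals are exact (Clopper-Pearson) 95% binomial intervals, cover counting error only and treat the lists as independent although most peaks are shared.

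Open chromatin inside a gene commonly marks enhancers, which bind transcription factors and can act on the host gene or on a neighbour, and alternative promoters, from which shorter transcripts begin. Promoters with many CpG dinucleotides tend to be open in most cell types and often lack a TATA box, whereas the openness of enhancers varies more between cell types. SMCHD1 is a chromatin protein of the SMC family, known for its part in silencing the inactive X chromosome, some imprinted genes and some gene clusters.

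Some of the strongest internal peaks lay at annotated start sites in the body of the gene. RefSeq's promoter windows, from 250 bases before to 50 bases after a start, gave 3154 such internal starts in 2437 genes, which met the same distance rule as the peaks. The sequences below are the 250 bases upstream of the start, 5′ to 3′ on the gene's strand, from RefSeq on GRCm38.p6. Lca5 and Wdr17 lie on the minus strand, and Lrif1 and Fer on the plus strand. They are shown for the 3 genes whose internal start had the best mean rank over the 4 lists, and for the best-ranked pair of genes that also had an internal start over 5 kb away with no peak in any list. A start counts as having a peak where the summit of an internal peak lay within 500 bp of it. Peaks of other classes or with a farther summit were not counted. Capitals mark GGGCGG (the GC box) and CCAAT (the CCAAT box) on either strand.
Lca5, start with a peak in all 4 lists, chr9:83441128-83441377: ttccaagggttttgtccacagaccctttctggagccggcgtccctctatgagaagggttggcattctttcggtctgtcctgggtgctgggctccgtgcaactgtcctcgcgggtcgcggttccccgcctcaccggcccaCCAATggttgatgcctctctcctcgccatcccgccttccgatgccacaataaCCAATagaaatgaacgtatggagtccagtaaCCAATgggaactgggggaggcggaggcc
Lrif1, start with a peak in all 4 lists, chr3:106721432-106721681: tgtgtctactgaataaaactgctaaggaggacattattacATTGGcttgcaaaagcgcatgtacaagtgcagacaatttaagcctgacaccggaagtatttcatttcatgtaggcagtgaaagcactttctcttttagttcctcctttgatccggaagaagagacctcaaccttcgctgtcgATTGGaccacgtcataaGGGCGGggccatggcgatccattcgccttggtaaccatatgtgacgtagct
Fer, start with a peak in all 4 lists, chr17:63863731-63863980: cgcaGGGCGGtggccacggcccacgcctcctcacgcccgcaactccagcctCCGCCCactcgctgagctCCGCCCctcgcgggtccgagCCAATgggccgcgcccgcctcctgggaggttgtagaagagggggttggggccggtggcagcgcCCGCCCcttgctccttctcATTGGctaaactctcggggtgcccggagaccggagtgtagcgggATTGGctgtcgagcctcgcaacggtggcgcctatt
Fer, start with no peak, chr17:63877816-63878065: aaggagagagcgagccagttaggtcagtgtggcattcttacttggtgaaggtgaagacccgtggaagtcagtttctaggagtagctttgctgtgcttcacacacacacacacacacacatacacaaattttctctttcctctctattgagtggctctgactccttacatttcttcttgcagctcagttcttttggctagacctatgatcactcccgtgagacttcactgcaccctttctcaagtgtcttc
Wdr17, start with a peak in all 4 lists, chr8:54724369-54724618: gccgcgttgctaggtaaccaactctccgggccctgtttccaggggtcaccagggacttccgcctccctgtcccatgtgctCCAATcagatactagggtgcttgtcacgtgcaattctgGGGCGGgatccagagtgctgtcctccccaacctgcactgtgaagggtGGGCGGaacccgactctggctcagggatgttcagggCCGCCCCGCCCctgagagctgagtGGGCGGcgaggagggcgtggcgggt
Wdr17, start with no peak, chr8:54718669-54718918: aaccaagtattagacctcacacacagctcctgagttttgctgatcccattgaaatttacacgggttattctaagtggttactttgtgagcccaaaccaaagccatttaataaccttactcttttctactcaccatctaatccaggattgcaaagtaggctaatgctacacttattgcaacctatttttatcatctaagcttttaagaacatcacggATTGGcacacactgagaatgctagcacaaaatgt

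The Lca5 start lay 1.87 kb inside the gene, which encodes the ciliary protein lebercilin, and its upstream window held 15 CpG dinucleotides, 3 CCAAT boxes and no GC box. A lncRNA gene, Gm2087, was also annotated there. The peak at it had a fold enrichment, the authors' ratio over local background, of 10.8 in del/del females, 10.6 in fl/fl females, 12.9 in del/del males and 13.3 in fl/fl males. The Lrif1 start lay 36.7 kb inside a gene whose product is a binding partner of SMCHD1, with a GC content of 45.6% and 10 CpG. Its peak had fold enrichments of 10.3 in del/del and 10.3 in fl/fl females, and of 12.3 in del/del and 11.8 in fl/fl males. Fer encodes a cytoplasmic tyrosine kinase. The window of its open start, 1.91 kb inside the gene, was 70.8% GC with 26 CpG, 4 GC boxes and 3 CCAAT boxes, while that of its start without a peak, 16.0 kb inside, was 46.4% GC with 3 CpG and neither box. In Wdr17, a WD-repeat gene, the window of the open start held 14 CpG and 5 GC boxes, of which a pair overlap, and that of the start without a peak held 2 CpG and no GC box. Each of the Wdr17 windows held 1 CCAAT box. These matches describe the letters of the windows, and no match does not bear on whether a factor binds.

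The same contrast held over the windows as a whole. The summit of an internal peak lay within 500 bp of 1519 of the 3154 internal starts in del/del females (48.2%), 1601 in fl/fl females (50.8%), 1472 in del/del males (46.7%) and 1510 in fl/fl males (47.9%). Of these starts 1324 had a peak in all 4 lists, 407 in some and 1423 in none. The median GC content of the 300-base windows was 61.0% for starts with a peak in all lists, 56.3% in some and 49.0% in none, against 52.7% over all 32851 windows of the table. The median number of CpG was 19, 8 and 4, against 7 over all windows. The GC box stood in 805 of 1324 windows with a peak in all lists (60.8%), 173 of 407 with a peak in some and 207 of 1423 with none, against 35.7% of all windows. The ETS motif CCGGAAG stood in 13.9%, 4.67% and 2.18%, against 8.86%, and the cyclic AMP response element TGACGTCA in 2.79%, 0.491% and 0.562%, against 1.79%. The TATA box TATAAA ran the other way, with 6.04%, 10.1% and 16.4%, against 13.6%. The AP-1 motif TGANTCA was found in 4.83%, 10.1% and 9.77%, against 7.81%. CCAAT boxes hardly differed, with 35.2%, 31.2% and 34.4%, against 37.4%. Both strands were searched for each motif, none was removed for overlap with another, and neighbouring starts of 1 gene share bases.

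**Figure D1:**
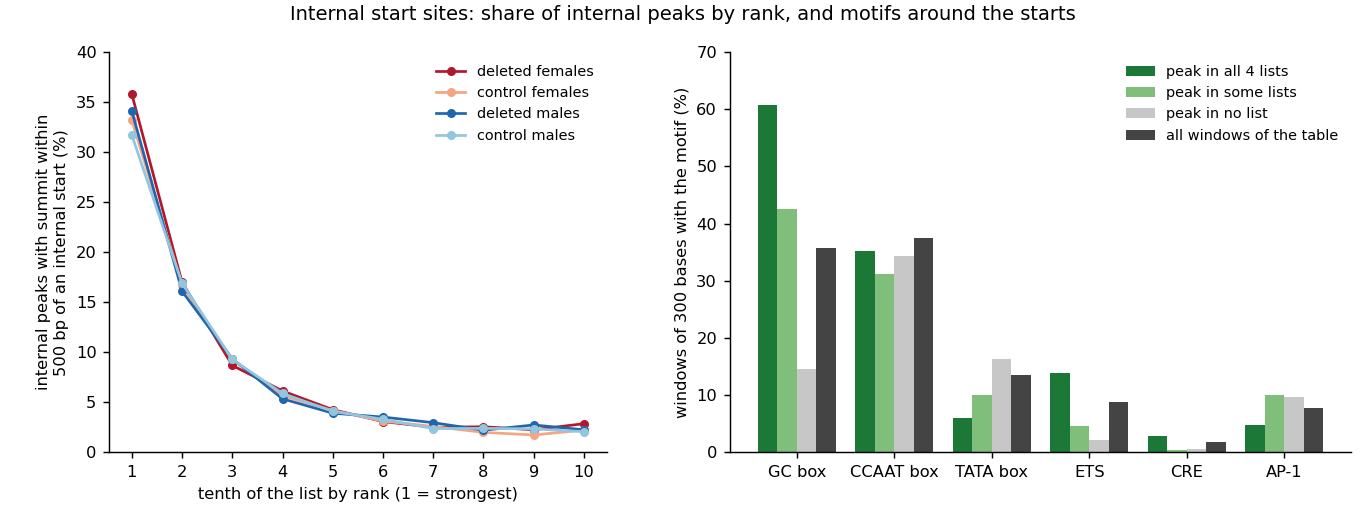
Left, the share of internal peaks (%) with a summit within 500 bp of an internal start, by decile of the rank in each list (1 = strongest), among peaks of genes in the RefSeq promoter table; 1 line per group. Right, the share (%) of windows of 300 bases with each motif, for internal starts with an internal peak summit within 500 bp in all 4 lists, in some or in none, and for all windows. The share at starts is at most 2.87% in the weakest decile, against 31.7% to 35.8% in the strongest, and between windows with a peak in all lists and in none the GC box differed most in percentage points (805 of 1324 against 207 of 1423) and the ETS motif most as a ratio (13.9% against 2.18%).

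Internal peaks at starts were concentrated among the strongest. Each list was cut to the size of the shortest, 88159 peaks, by the authors' −log10 q, a measure of how far a peak stands above its local background, and divided into deciles. In the strongest decile, 35.8% of internal peaks of the tabled genes lay at an internal start in del/del females, 33.2% in fl/fl females, 34.1% in del/del males and 31.7% in fl/fl males, and in decile 5 the share in del/del females was 4.27%. Over all internal peaks of these genes as deposited the shares were 5.89%, 4.84%, 6.74% and 6.08% in the same order. Among the 100 strongest internal peaks of each list, 48, 44, 42 and 39 lay at an internal start. Peaks at internal starts had a median fold enrichment of 4.76 in del/del females, 5.0 in fl/fl females, 6.0 in del/del males and 6.07 in fl/fl males, against 3.12, 3.16, 4.0 and 3.91 for the other internal peaks. Their median widths were 651, 708, 599 and 652 bp, against 261, 266, 260 and 267 bp. About 78.1% of the internal peaks belonged to genes in the promoter table, and the others were not placed relative to a start.

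Taken as a class, internal peaks were weaker than peaks at gene ends and made up less of the strongest peaks than of the weaker ones, as did other peaks away from coding gene ends. Their median fold enrichment was 3.12 in del/del females, 3.17 in fl/fl females, 4.01 in del/del males and 3.95 in fl/fl males, against 4.77, 4.93, 6.1 and 6.08 for peaks within 1 kb of a coding gene end. In genes of 300 kb or more the medians were 3.38, 3.36, 4.29 and 4.08, and outside genes within 50 kb of a coding gene end 3.2, 3.25, 4.11 and 3.95. Internal peaks of the shorter genes made up 14.9%, 16.2%, 16.4% and 16.4% of the strongest decile of autosomal peaks, and between 30.3% and 34.5% of deciles 4 to 10. The share levelled off at decile 4 in every list, as the plot of location by rank shows. Peaks outside genes within 50 kb were 8.47% to 8.88% of the strongest decile, against 20.7% to 20.9% of the whole cut lists. Peaks in genes of 300 kb or more were 5.83% to 7.02% of it, against 9.88% to 10.6%. Fold enrichment and −log10 q depend on depth, which ranged from 74674218 tags in del/del males to 144613215 in fl/fl females, so classes of peaks were compared within a list. Values of single sites are given below for each list side by side, and a difference between lists in such a value is not adjusted for depth.

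**Figure D2:**
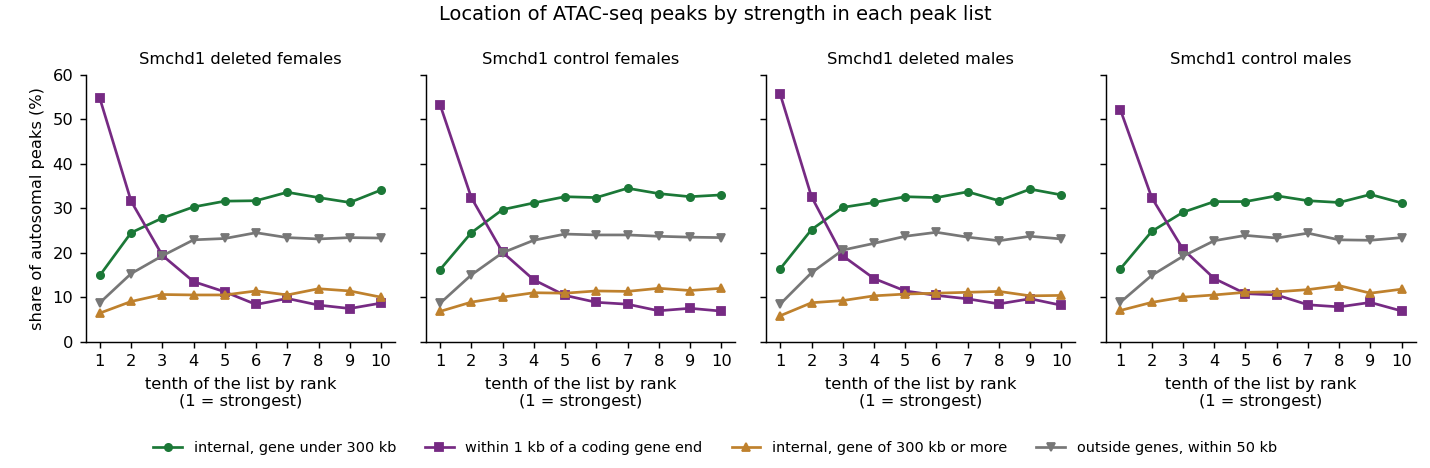
Share of autosomal peaks (%) at each location, by decile of the rank in each of the 4 lists cut to equal length (1 = strongest). Internal peaks of genes under 300 kb are between 14.9% and 16.4% of the strongest decile and over 30% from decile 4 on, while peaks at coding gene ends are over 50% of the strongest decile.

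The number of internal peaks followed the length of the gene. Of 20132 autosomal coding genes shorter than 300 kb, 9194 held an internal peak in del/del females, 10061 in fl/fl females, 8479 in del/del males and 8893 in fl/fl males, 7653 in every list and 9237 in none. In the cut lists, 30.4% of genes shorter than 50 kb held one in del/del females and 30.7% in fl/fl females, and 97.3% and 96.6% of genes of 200 to 300 kb. Per megabase of gene body over 1 kb from the ends, the number stayed between 35.6 and 40.8 in every length class and list. Peaks were spread along the gene. In genes of 20 kb or more with a known direction, 20.6% of internal peaks in del/del females lay in the first quintile of the gene and 18.8% in the last, and 20.1% and 18.9% in fl/fl females. Without the peaks at internal starts, the first quintile held 18.8% in del/del females and 18.5% in fl/fl females. Within 10 kb of the 5′ end there were 1.17 times as many internal peaks as within 10 kb of the 3′ end in del/del females, 1.15 times in fl/fl females, 1.15 times in del/del males and 1.2 times in fl/fl males. Away from internal starts these ratios were 0.975, 0.96, 0.965 and 1.0.

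The highest-ranked internal sites were chosen by their mean rank over the 4 lists, so being strong in each list was fixed by the choice, and their values are a description. The site with the best mean rank, 3.75, lay in Chl1, which encodes a neural cell adhesion molecule of the L1 family, at chr6:103648989-103649358, 83.9 kb from the nearest coding gene end. Its fold enrichment was 21.0 in del/del females, 18.9 in fl/fl females, 27.1 in del/del males and 26.2 in fl/fl males. A site in Cdk8, the kinase of the Mediator complex, had 16.9 and 15.2 in del/del and fl/fl females, and 19.7 and 17.5 in del/del and fl/fl males. The Zc3h7a site, in a CCCH zinc finger gene, had 14.1 in del/del and 14.9 in fl/fl females, with 16.8 in both male lists. The Peak1 site, in a gene for a cytoskeletal pseudokinase, had 15.3 in del/del and 15.5 in fl/fl females, with 18.3 in del/del and 17.6 in fl/fl males. None of these was at an internal start of the RefSeq table. No region was removed here for uncertain placing of reads or unusually high signal, and whether these sites reflect either was not tested. The next were in Pex2, a peroxisome assembly gene, Uggt2, a glucosyltransferase gene of the endoplasmic reticulum, Lca5, Arpp21, a gene for a phosphoprotein of neurons, Lrif1 and Kctd16, which encodes an auxiliary subunit of GABA-B receptors. Their mean ranks began at 43.5.

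The genes with the most internal peaks were long. Celf4, an RNA-binding protein gene of neurons, held 33 in del/del females, 27 in fl/fl females, 34 in del/del males and 31 in fl/fl males over 277 kb. Nav1, which encodes a microtubule-binding neuron navigator, held 20 in del/del females against 29 in fl/fl females, and 28 in del/del males against 31 in fl/fl males. Tns3 (a tensin of focal adhesions), Trio (a guanine nucleotide exchange factor gene), Shroom3 (known from apical constriction in the neural tube), Asap1 (a GTPase-activating protein for Arf), Gramd1b and Tmem108 held between 20 and 27 in each list. Sfi1, with 31 in del/del and 18 in fl/fl females and 27 in del/del and 21 in fl/fl males, and the zinc finger gene Zfp978, with 24 in del/del and 19 in fl/fl females and 32 in del/del and 14 in fl/fl males, stand among them. Zinc finger genes of this kind have near-identical neighbours, so the placing of their reads is uncertain, and these sources do not tell how reads with several matches were treated. Whether the placing of reads also affects the Sfi1 counts was not tested. By number per length, among genes of 20 kb or more, the first was Kdm6b, an H3K27 demethylase gene, with 8 peaks in del/del females, 8 in fl/fl females, 10 in del/del males and 8 in fl/fl males over 21.9 kb. Sfi1, Gnai2 (a G protein alpha subunit), Dtx4 (a modulator of Notch signalling), Cyp26b1 (an enzyme that breaks down retinoic acid), Slc6a9 (a glycine transporter), Dgkz (a diacylglycerol kinase), Axin2 (an inhibitor of Wnt signalling), Adgrg1 (an adhesion receptor of neural progenitors) and Emp1 followed, with 1.94 to 3.39 peaks per 10 kb.

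The comparison of del/del with fl/fl cells asked which internal sites were open in only 1 genotype.  Of 33517 internal sites formed by overlapping peaks of the cut lists, 17729 (52.9%) had a peak in all 4 lists, against 55.6% of 111044 sites of any location. Both del/del lists and neither fl/fl list had a peak at 838 sites (2.5%), against 2.65% of all sites, and both fl/fl lists and neither del/del list at 1236 (3.69%), against 3.68%. Both female lists and neither male list shared 595 sites (1.78%), against 1.66% of all sites. Both male lists and neither female list shared 475 (1.42%), against 1.2%. A peak in del/del females overlapped one in fl/fl females for 84.8% of internal peaks. One in fl/fl females overlapped the del/del list for 80.6%, with 81.1% and 81.7% in males. Over all autosomal peaks 85.0% of the del/del list did so in females, and 83.1% and 81.4% of the del/del and fl/fl lists in males. In the fl/fl female list 71085 of 85671 autosomal peaks did. Internal peaks were thus near this background, slightly above it in fl/fl males and below it in the other lists. In the strongest decile every internal peak had an overlapping peak in the other genotype's list of the same sex, 1274 in del/del and 1387 in fl/fl females, and 1401 in del/del and 1408 in fl/fl males. In longer genes, outside genes within 50 kb and at coding gene ends, at least 99.6% of that decile did. In the weakest decile 43.4% of the del/del and 39.2% of the fl/fl internal peaks did in females, and 32.3% and 45.2% in males. In genes of 300 kb or more these shares were 42.9% and 38.7% in females, and 41.3% and 36.4% in males.

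To set aside the weak peaks, only the 44079 strongest peaks of each list were candidates. A del/del candidate without an overlapping peak in the cut fl/fl list was called gained, and a fl/fl candidate without one in the cut del/del list was called lost. In females 56 of 11026 strong internal peaks of the del/del list were gained, or 0.508% (0.384 to 0.659), against 1.11% of all autosomal strong peaks (472 of 42711). Of 11509 in the fl/fl list 76 were lost, or 0.66% (0.521 to 0.826), against 0.45% of all autosomal ones (193 of 42869). In males 68 of 11657 were gained, or 0.583% (0.453 to 0.739), against 0.831%, and 111 of 11465 were lost, or 0.968% (0.797 to 1.16), against 1.08%. In females gained internal peaks were thus rarer than in the class of all autosomal peaks, and lost ones more frequent, while in males the gained share was below the background and the interval of the lost share included it. The background includes coding gene ends, where 3 of 11151 were lost in females. Away from them the female lost shares were near that of internal peaks. They were 0.637% in genes of 300 kb or more, 0.541% outside genes within 50 kb of a coding gene end and 0.616% farther away.

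Internal peaks of coding genes of 300 kb or more, the most alike class, had a higher share of gained peaks in both sexes by these calls. In males this depended on the setting. In females 1.72% (1.34 to 2.17) of strong peaks there were gained and 0.637% (0.416 to 0.932) lost. In males 1.04% (0.743 to 1.41) were gained and 1.89% (1.49 to 2.35) lost, both above the male shares of shorter genes. Outside genes but within 50 kb of a coding gene end, 1.36% (1.11 to 1.65) were gained and 0.541% (0.39 to 0.73) lost in females. At coding gene ends 0.0986% were gained and 0.0269% lost in females. Gained peaks were 42.4% of all changed internal peaks of the shorter genes in females (33.9 to 51.3), against 72.6% (62.5 to 81.3) in genes of 300 kb or more and 71.2% (63.2 to 78.4) outside genes within 50 kb. In males the shares were 38.0% (30.9 to 45.5), 34.2% (25.7 to 43.5) and 44.8% (37.6 to 52.1), whose intervals overlap. The difference between shorter and longer genes in females depended on the setting. With no margin between strong peaks and the cut lists it was gone, at 43.2% of changed internal peaks gained in shorter genes and 42.8% in genes of 300 kb or more, and in males the shares were then 51.4% and 39.5%. With the female lists cut to the shorter of them the shares were 28.0% and 52.6%, with ranking by pileup 27.6% and 54.2%, and with −log10 q of at least 10 they were 8.95% and 14.2%. With all peaks as deposited 68 were gained and 940 lost in shorter genes, and 91 gained and 388 lost in longer ones. With only the 22039 strongest peaks as candidates no peak was lost in either class in females. Within rank limits the lower gained share in females was also seen. Of internal peaks of ranks from above 33059 to 44079, 1.12% (0.787 to 1.53) were gained in shorter genes. In genes of 300 kb or more 3.58% (2.57 to 4.84) were. In males the intervals of shorter and longer genes overlapped within each rank limit. At the same ranks 1.64% (upper limit 2.12) were gained in shorter genes and 2.57% (lower limit 1.73) in longer ones. With no margin the male order was reversed, with 4895 of 25890 internal peaks gained in shorter genes and 1394 of 8496 in longer ones.

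**Figure D3:**
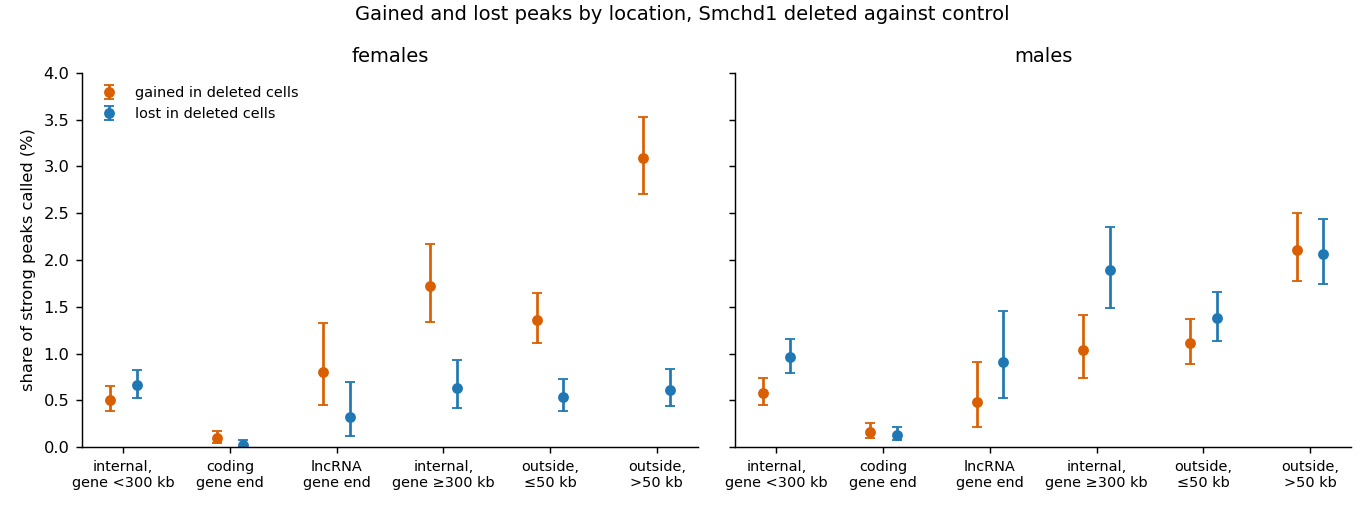
Share of strong peaks (%) called gained or lost in Smchd1 del/del cells by location, in females (left panel) and males (right panel). Points are shares and bars exact 95% binomial intervals; at 0.508% gained, internal peaks of genes under 300 kb lie below those of longer genes at 1.72% in females, while their lost shares of 0.66% and 0.637% overlap. In males they lie below for both, at 0.583% against 1.04% gained and 0.968% against 1.89% lost.

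Called peaks were near the limit of what was counted as strong. Of the internal peaks lost, 0 of 4704 in females and 0 of 4707 in males ranked among the 22039 strongest, which allows shares of up to 0.0784% and 0.0783%, and 73 of 76 and 100 of 111 ranked below 33059. Of those gained, 4 of 56 in females and 1 of 68 in males ranked among the 22039 strongest. Among genes under 300 kb, the lost share rose with the length of the host gene: in females 0.449% in genes under 50 kb, 0.621%, 0.653% and 1.14% (0.707 to 1.74) in genes of 200 to 300 kb, and in males 0.562%, 0.801%, 1.23% and 1.54% (1.02 to 2.21). The intervals of the shortest and longest of these classes overlap in females and not in males, and rank was not held constant. In females the order did not go on in genes of 300 kb or more, where 0.637% (0.416 to 0.932) were lost, against 1.89% (1.49 to 2.35) in males. Gained shares had no such order, with 0.317%, 0.618%, 0.497% and 0.745% in females and 0.586%, 0.504%, 0.482% and 0.885% in males. Lost peaks were narrower than kept peaks of like rank, with medians of 258 and 336 bp in females and 239 and 307 bp in males, and gained ones were 306 and 313 bp in females and 246 and 272 bp in males. Lost peaks lay at a median of 23.9 kb from the nearest coding gene end, against 18.4 kb for kept peaks of like rank, in females and 25.6 kb against 17.7 kb in males. Gained peaks lay at 17.9 kb against 18.1 kb in females and 22.1 kb against 18.3 kb in males. Of the peaks called, 32 of 56 gained and 16 of 76 lost in females had a weaker peak in the full list of the other genotype. In males this held for 20 of 68 gained and 0 of 111 lost, where the del/del list is the shortest and has no weaker peaks to offer.

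Peaks at internal starts were seldom called. In females 2 of 1034 at a start were gained (0.193%) and 0 of 1050 lost, which allows up to 0.351%, against 43 of 7670 (0.561%) and 64 of 8034 (0.797%) elsewhere in the tabled genes. In males 3 of 1060 (0.283%) were gained and 2 of 1044 (0.192%) lost at starts, against 53 of 8164 (0.649%) and 86 of 8001 (1.07%) elsewhere. The counts at starts are small and, for gained peaks, the intervals overlap. Peaks at starts were also stronger, which was not held constant. They were in Trim30a, a tripartite motif gene of innate immunity, with 2 gained in females and 1 in males, and in Hoxd10 and Wbp1l, gained in males. In males a peak at an internal start of 1700019D03Rik and one at a start of Hdc, the histidine decarboxylase gene, were lost.

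In females the strongest gained internal peak lay in Arhgap28, which encodes a GTPase-activating protein, at chr17:67988871-67989271. Its fold enrichment was 6.73 in del/del females, and its −log10 q was 38.4 in that list against 4.71 in the full fl/fl list. In males the peak there was present in both genotypes, at −log10 q of 23.5 in del/del and 6.73 in fl/fl, and was not called. The next in females were in Rimbp2, Pramel13, Tbx5, Zfp978, Gabra5, the lectin gene Clec4b2, Adamts2, Sphkap and the NLR gene Nlrp4c, of which Rimbp2, Pramel13, Tbx5, Gabra5 and Adamts2 were also called in males. In males the strongest lay in Srrm4, a neural splicing regulator gene, with a fold enrichment of 7.57 in del/del males and a −log10 q of 33.9 in del/del and 4.01 in fl/fl males. In females the peak there had a −log10 q of 38.5 in del/del and 13.9 in fl/fl. Gabra5, Pramel13, Adam22, Dhx8, Tbx5, Rimbp2, Klhl32, Tspear and Ifi202b followed, of which Adam22, Dhx8, Klhl32 and Tspear had a peak in both female lists.

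Gained in both sexes were 11 internal sites, 19.6% of the female and 16.2% of the male calls. Over all autosomal peaks 133 were, or 28.2% of the female and 37.3% of the male calls. The 11 sites are out of 9723 internal peaks strong in both del/del lists, where 0.353% of all such autosomal peaks were gained in both sexes. The site in Pramel13, a gene of the PRAME family, at chr4:144404219-144404989, had fold enrichments of 6.32 in del/del females and 6.29 in del/del males and no peak in either full fl/fl list. Rimbp2, a gene for a presynaptic binding protein, had 6.54 and 6.01 at chr5:128917146-128917505, with none in the fl/fl lists. Tbx5, a T-box gene known from heart and limb development, had 5.67 and 6.03 at chr5:119866381-119867295, with none in the fl/fl lists. In Gabra5, a GABA-A receptor subunit gene, the values were 5.34 in del/del females and 2.78 in fl/fl females, and 6.58 in del/del males and no peak in fl/fl males. Ifi202b (an interferon-activated gene) had 4.85 and 5.72, St6gal2 (a sialyltransferase gene) 4.85 and 5.29, Npbwr1 (a neuropeptide receptor gene) 3.96 and 5.03, and Trim30a 4.44 and 4.86 in del/del females and males, with no peak in the fl/fl lists. Adamts2, a procollagen peptidase gene, had 5.01 in del/del and 2.62 in fl/fl females, and 5.34 in del/del and 2.63 in fl/fl males. Epb41l3, a membrane skeleton gene, had 4.68 in del/del and 2.86 in fl/fl females, and 5.01 in del/del and 2.75 in fl/fl males. Phactr3 had 3.62 in del/del and 2.6 in fl/fl females, and 4.71 in del/del males and no peak in fl/fl males. Pramel13, Ifi202b and Trim30a belong to families of similar genes, where the placing of reads is uncertain.

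**Figure D4:**
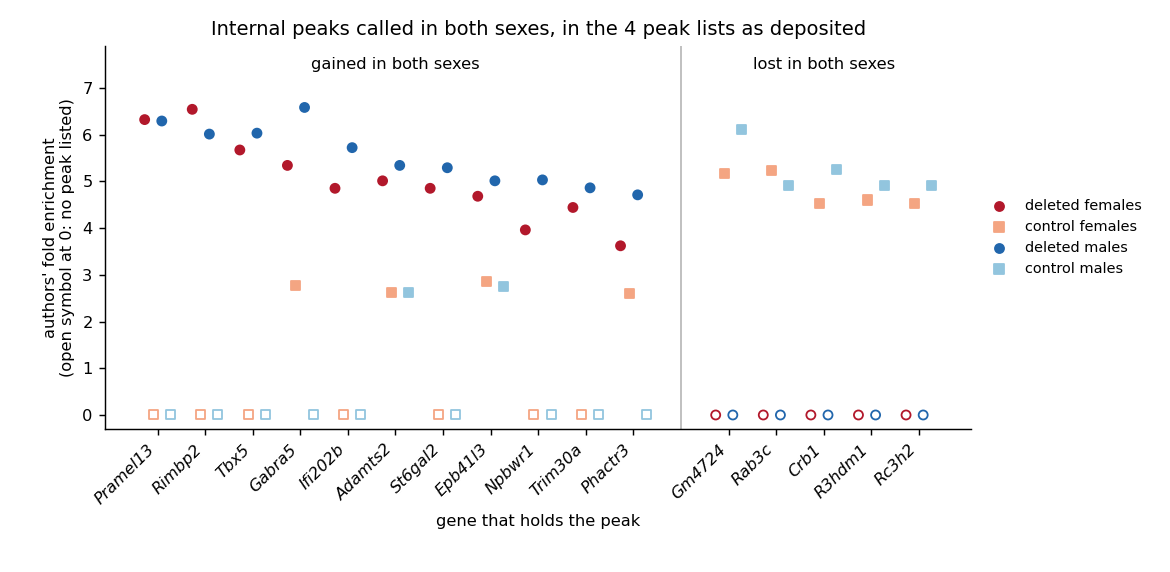
The authors' fold enrichment in each of the 4 full lists at the 16 internal sites called in both sexes, named by host gene; circles are del/del and squares fl/fl, and open symbols at 0 mark a list with no peak there. Gained sites lie between 3.62 and 6.58 in the del/del lists, and the 5 lost sites lie between 4.52 and 6.1 in the fl/fl lists with no peak in either del/del list, which in males follows from the call.

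Internal peaks were lost in both sexes at 5 sites, 6.58% of the female and 4.5% of the male calls. Over all autosomal peaks 14 were, or 7.25% of the female and 3.02% of the male calls. The 5 sites are out of 10141 internal peaks strong in both fl/fl lists, and the 14 are 0.0362% of all such autosomal peaks. None of the 5 had a peak in the full del/del female list. In males the call itself fixes this, since the del/del list was not shortened by the cut. The site in Gm4724, at chr2:175663123-175663324, had fold enrichments of 5.16 in fl/fl females and 6.1 in fl/fl males. This gene carries a provisional name, and whether the placing of reads affects the site was not tested. Rab3c, a small GTPase gene of synaptic vesicles, had 5.24 and 4.91, and Crb1, the crumbs polarity gene, 4.52 and 5.26 in fl/fl females and males. R3hdm1 had 4.6 and 4.91 and Rc3h2, a roquin gene of mRNA decay, 4.52 and 4.91. Lost in females alone by these calls were peaks led by Myh10, a nonmuscle myosin gene, with −log10 q of 2.83 in the full del/del list and 27.1 in fl/fl females, and by Ckmt2, Ttll7, Atg10, Homer1, Mertk, Itgb8 and Wdr70, which had no del/del female peak. All 8 had peaks in both male lists. In males the calls were led by Cntn1, a contactin gene of axons, where the site at chr15:92335592-92336029 had a −log10 q of 14.4 in del/del and 32.6 in fl/fl females, and no peak in del/del males against 25.9 in fl/fl males. Pde3a, Slc16a7, Krt28, Ptdss1, Tmem232 and 2610301B20Rik also had peaks in both female lists, and Myh15 in the fl/fl one. No site was gained in one sex and lost in the other.

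The counts of internal peaks over all genes depended on the length of the lists. As deposited, del/del had fewer in both sexes, with 30458 against 39153 in females and 25890 against 29155 in males. In the cut lists, internal peaks numbered 24910 in del/del and 25701 in fl/fl females, a ratio of 0.969, and 25890 in del/del and 25243 in fl/fl males, a ratio of 1.03. Of 9711 genes with an internal peak, 2093 held more in del/del than in fl/fl females and 2572 fewer, and 2648 held more and 2207 fewer in males. The direction was shared by both sexes for 777 with more and 889 with fewer. The genes named next were chosen after their values were seen, as genes with a difference of 3 or more in both sexes, of which 29 had more and 37 fewer. Rimbp2 held 7 in del/del and 1 in fl/fl females, and 4 in del/del and 1 in fl/fl males. Tmem132b held 15 in del/del against 8 in fl/fl females, and 17 in del/del against 9 in fl/fl males. Ablim3, an actin-binding LIM protein gene, held 7 in del/del against 2 in fl/fl females, and 4 in del/del against 1 in fl/fl males. On the other side Rapgef5, a guanine nucleotide exchange factor gene for Rap, held 13 in del/del against 19 in fl/fl females, and 10 in del/del against 17 in fl/fl males. Csrnp3 held 9 in del/del against 14 in fl/fl females, and 8 in del/del against 14 in fl/fl males. Itga1, an integrin gene, held 9 in del/del against 13 in fl/fl females, and 9 in del/del against 14 in fl/fl males. Several genes with more, among them Zfp978, Zfp984, Gm13212, Gm21154, Gm7592 and Gm38510, belong to families with near-identical copies or carry provisional names.

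Lists of genes by function were set beside all internal peaks, as counts only. The lists were chosen with earlier results of these data known, so their ratios are a description. Genes of neural stem cells and radial glia, the labelled cell type, held 40 internal peaks in del/del females, 38 in fl/fl females and 44 in each male list, with a peak in 15 of 21 genes. In del/del females, fl/fl females, del/del males and fl/fl males, Gli3, a transcription factor of Hedgehog signalling, held 13, 12, 9 and 13. Slc1a3, a glutamate transporter of radial glia, held 6, 7, 6 and 7, and the growth factor receptor gene Egfr 5, 4, 7 and 7. A Gli3 peak was lost in males.

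Transcription factor genes of neural progenitors stood above all internal peaks in both sexes. They held 146 in del/del against 136 in fl/fl females, a ratio of 1.07 where all internal peaks had 0.969. In males they held 155 in del/del against 141 in fl/fl cells, a ratio of 1.1 where all had 1.03. More genes of the list had more than fewer, 9 and 4 in females and 8 and 3 in males. The nuclear factor I genes Nfib and Nfix held 19, 20, 21 and 19 and 17, 13, 17 and 17, and the bHLH-PAS gene Arnt2 held 15, 13, 16 and 14, in the order of groups just given. A Nfib peak was lost in females and an Arnt2 peak gained in males. Imprinted genes also stood above all internal peaks in both sexes, with ratios of 0.987 in females and 1.08 in males.

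Genes of integrins and focal adhesion stood below in both sexes. The list held 120 in del/del against 132 in fl/fl females, a ratio of 0.909, and 124 in del/del against 130 in fl/fl males, a ratio of 0.954. In females 6 genes had more and 13 fewer, and in males 7 had more and 10 fewer. The integrin gene Itga9 held 11, 13, 11 and 13. Peaks of the integrin genes Itga1 and Itga2 were lost in males and one of Itgb8 in females. Other lists also stood below all internal peaks in both sexes. In females and males the ratios were 0.953 and 0.918 for neuron markers and 0.857 and 1.0 for EGF and FGF receptor signalling. For early embryo and germline genes they were 0.8 and 1.0, from only 4 in del/del against 5 in fl/fl females and 6 in each male list. A ratio of 1.0 means equal counts and is below only the 1.03 of all internal peaks in males.

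Among signalling genes, the EGF and FGF receptor list held 66 in del/del against 77 in fl/fl females, a ratio of 0.857, and 76 in each male list. In it 7 genes had more and 14 fewer in females. The Hippo list held 96 in each female list, and 91 in del/del against 99 in fl/fl males. Tead1, a transcription factor of that pathway, held 21, 19, 19 and 17, its cofactor Vgll4 12, 14, 12 and 13, and the atypical cadherin gene Fat1, with a peak lost in males, 10, 11, 10 and 12. The Notch list held 45 in del/del against 46 in fl/fl females and 49 in each male list, led by the receptor gene Notch2 with 8, 7, 10 and 9. The Wnt list held 70 in del/del against 73 in fl/fl females, and 79 in del/del against 76 in fl/fl males, led by Daam1, a formin of planar polarity, with 12, 10, 13 and 11. The BMP and TGF-beta list held 83 in del/del against 80 in fl/fl females and 79 in each male list, led by the ubiquitin ligase gene Smurf1 with 8, 8, 9 and 8.

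Polycomb genes held 47 in del/del against 59 in fl/fl females, a ratio of 0.797, with 2 genes with more and 8 with fewer, and 54 in del/del against 52 in fl/fl males. Among them Jarid2, a cofactor of PRC2, held 10, 11, 10 and 11, the PRC1 gene Phc2 10, 11, 11 and 10, and the PRC1 gene Cbx7 5, 8, 7 and 8. Genes of cohesin, CTCF and Smchd1 held 8 in del/del against 12 in fl/fl females, and 13 in del/del against 9 in fl/fl males. Smchd1 itself, on chromosome 17 from 71344489 to 71475366, held 1 internal peak in del/del females and 0 in the other lists. Which exons Cre removes is not stated in these sources, and the count does not check the deletion. DNA methylation genes held 43 in del/del against 39 in fl/fl females, and 42 in del/del against 44 in fl/fl males, led by the methyltransferase gene Dnmt3a with 12, 11, 15 and 15.

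Imprinted genes held 147 in del/del against 149 in fl/fl females, and 148 in del/del against 137 in fl/fl males. Usp29, a maternally silenced gene, held 16, 17, 17 and 16 and had a peak lost in females, where one of Gab1 was gained. In males peaks of Grb10 and Rtl1 were gained and one of Ppp1r9a was lost. Over the list, 10 genes had more and 9 fewer in females, and 12 had more and 7 fewer in males.

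Markers of other cell types held internal peaks as well, and a peak shows open DNA and not expression. Neuron markers held 61 in del/del against 64 in fl/fl females and 56 in del/del against 61 in fl/fl males. Map2, a microtubule protein gene of dendrites, held 15, 18, 14 and 17. In females peaks of Gad2 and Slc17a6, genes of inhibitory and excitatory neurons, were gained, and in males one of the RNA-binding protein gene Elavl4 was lost. Muscle and heart genes held 45 in del/del against 49 in fl/fl females and 44 in del/del against 41 in fl/fl males. Tbx5, gained in both sexes, is on that list, with 1 internal peak in del/del females, 3 in del/del males and 0 in either fl/fl list. Astrocyte markers held 20 in each female list and 21 in del/del against 27 in fl/fl males. Oligodendrocyte lineage markers held 44 in del/del against 42 in fl/fl females and 43 in del/del against 44 in fl/fl males, led by Mbp, a myelin gene, with 15, 16, 17 and 13. For microglia and blood the counts were 19 in del/del against 21 in fl/fl females and 23 in del/del against 22 in fl/fl males. For endothelial cells and pericytes they were 50 in del/del against 47 in fl/fl females and 42 in del/del against 46 in fl/fl males, and for fibroblasts 18 in del/del against 22 in fl/fl females and 21 in del/del against 20 in fl/fl males. Housekeeping genes held 6 in each female and 8 in each male list. The p53 response genes held 14 in del/del against 13 in fl/fl females and 13 in del/del against 15 in fl/fl males, with Cdkn1a, a cell cycle inhibitor gene, at 3 in every list. Early embryo and germline genes held 4 in del/del against 5 in fl/fl females and 6 in each male list. The median difference per gene was 0 in every list and sex but for −1 in females for integrins and focal adhesion, and 0 over all genes with an internal peak.

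**Figure D5:**
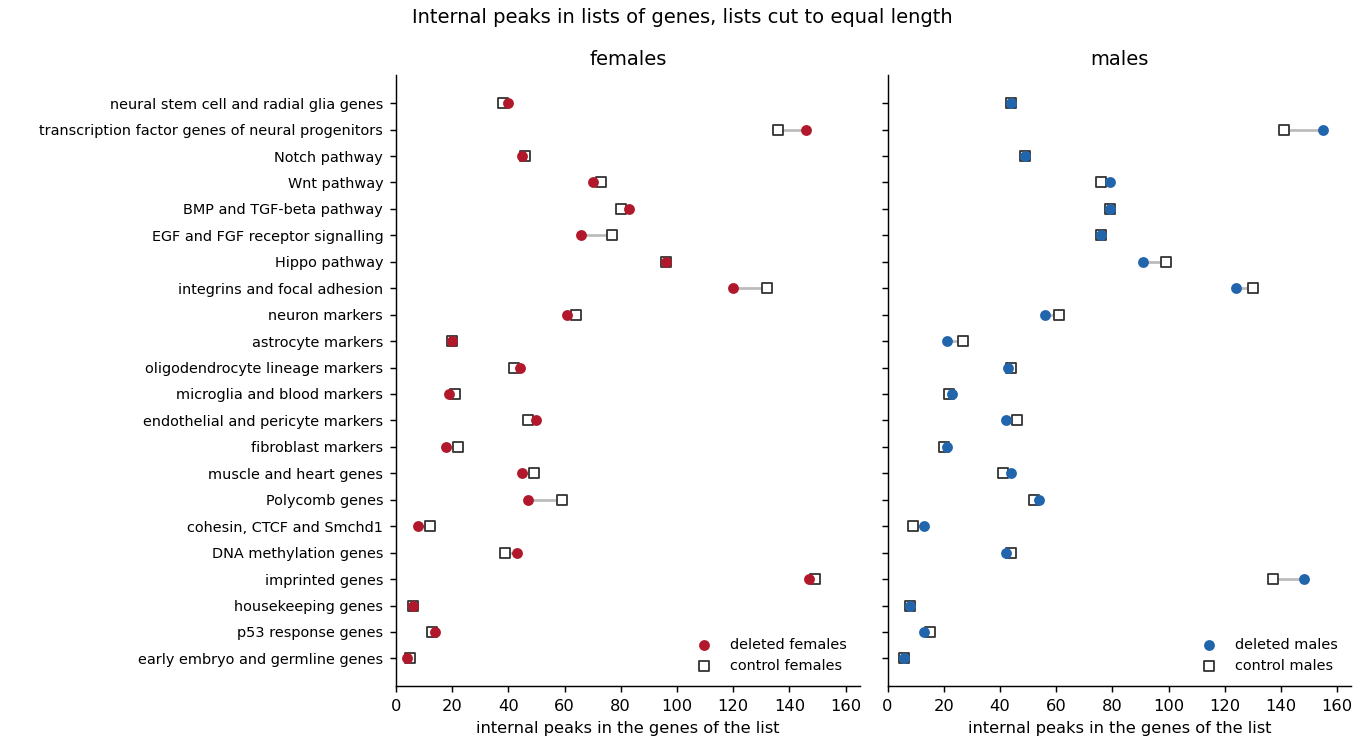
Number of internal peaks in the genes of each list in the cut peak lists, for females (left) and males (right); filled circles are del/del, open squares fl/fl, and the line joins the pair. Transcription factor genes of neural progenitors lie to the right in del/del cells of both sexes (146 against 136, and 155 against 141). To the left in both sexes lie integrins and focal adhesion (120 against 132, and 124 against 130) and neuron markers (61 against 64, and 56 against 61). The gene lists were chosen with earlier results of these data known.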

How the data were processed

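ATAC-seq peak lists of 4 groups, pooled from 10 libraries, were analysed. The build was mm10 and the tools named were Bowtie2 2.2.5, Trim Galore 0.4.0, edgeR, MACS2, bcl2fastq, Picard and SAMtools, per the submitters' processing notes, which give no roles. Peak calling was by MACS 2.1.0.20140616 on 1 alignment per group, per the file headers, at a q-value limit of 0.05, with reads moved 75 bp upstream and extended to 150 bp and with no control. The pileup signal, the fold enrichment ratio and the −log10 p and −log10 q of each peak are the authors' deposited values, used here to rank peaks and compare classes within a list, and given list by list at single sites without adjustment for depth. Tags after filtering numbered 139318421 in deleted females, 144613215 in control females, 74674218 in deleted males and 91734730 in control males, with tag sizes of 63, 53, 59 and 62 bp, so the male lists are the shallower.

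All chromosomes from 1 to 19, X and Y were kept, and each list was cut to its 88159 highest −log10 q values. Equal values were ordered by −log10 p, fold enrichment, pileup and position. At that cut the −log10 q was 4.27 in deleted females, 6.59 in control females, 1.39 in deleted males and 4.52 in control males. Overlap meant at least 1 shared base pair. A peak belonged to the shortest coding gene that held its summit. Gene positions, start windows and strands came from RefSeq tables of GRCm38.p6, whose sequence is that of mm10. The tables held start windows for 17492 of 21887 coding genes. No genome sequence was used, so peak sequences were not searched. No test was run, since each group has 1 list, and the p-values deposited with peaks do not compare groups.

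The members and the gene lists were chosen with earlier results of these data known. Genes were named as the 10 sites with the best mean rank, the 10 genes with the most internal peaks in number and per length, the 10 strongest gained and lost in each sex and in both, and up to 3 genes per list; the text says where genes were chosen otherwise. Some genes that the rule takes are not reported here. Other settings of overlap, list length, rank limit, ranking value, threshold, gene length and distance were tried, and windows of 250 bp and 1 kb around internal starts were added after the data were seen. The calling was tested on simulated data. Scripts ran on Python 3.11.15 with scipy 1.17.1, numpy 2.4.6, matplotlib 3.10.9 and pandas 2.3.3.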

Additional observations from a re-analysis of the deposited data

Results flagged for a closer look

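Differences between deleted and control cells in the number of internal peaks ran in opposite directions in the sexes for all internal peaks and for 11 lists of genes; each list is 1 value per group, and none of these differences between the sexes was tested. Over all internal peaks of the cut lists the difference was −791 in females and 647 in males. For lists of genes, the differences in females and males were −3 and 3 for the Wnt pathway, 2 and −1 for oligodendrocyte lineage markers, −2 and 1 for microglia and blood markers, and 3 and −4 for endothelial and pericyte markers. Polycomb genes had −12 and 2, muscle and heart genes −4 and 3, and fibroblast markers −4 and 1. For genes of cohesin, CTCF and Smchd1 they were −4 and 4, for DNA methylation genes 4 and −2, for imprinted genes −2 and 11, and for p53 response genes 1 and −2.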

How the results depend on the processing

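No paired analysis was possible because each group is 1 list pooled over its libraries, and for the same reason no replicate could be left out. Counts are given as gained in females, lost in females, gained in males, lost in males, gained in both and lost in both, which were 56, 76, 68, 111, 11 and 5. Without a margin between strong and cut lists they were 3792, 4983, 4895, 4621, 863 and 1251, with ranking by pileup 121, 317, 174, 267, 18 and 50, with −log10 q of at least 10 594, 6040, 852, 3779, 90 and 1704, and with only the 22039 strongest peaks as candidates 4, 0, 1, 0, 0 and 0. With all peaks as deposited, 940 were lost in females, 292 in males and 52 in both. With the lists of a sex cut to the shorter of them, 92 were gained and 236 lost in females and 15 lost in both. A gene length limit of 200 kb left 2 lost in both. The other alternatives moved these counts by less than 1.5 times. Shares of internal peaks in deleted females, control females, deleted males and control males were 26.9%, 29.1%, 27.5% and 28.0% with −log10 q of at least 10, 25.6%, 26.3%, 25.5% and 24.9% with 200 kb, 22.0%, 22.9%, 22.0% and 21.7% with 5 kb from gene ends, and 29.4%, 30.2%, 29.3% and 28.7% with the whole peak over 1 kb away. In lists of equal length they were 29.2% in deleted and 30.0% in control females. With windows of 250 bp or 1 kb around internal starts, 32.9% and 37.1% of the strongest decile lay at a start in deleted females, and 30.2% and 34.0% in control females. The cause of these moves was not tested. Calls rest on peaks near the rank limits, and depth and tag size differ between the groups compared.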

Other observations

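Internal peaks also overlapped small RNA genes annotated inside coding genes. In del/del females 37 of 30458 internal peaks overlapped a miRNA gene, and in fl/fl females 38 of 39153, with 26 of 25890 in del/del and 30 of 29155 in fl/fl males. Pseudogenes were overlapped by 188 in del/del and 221 in fl/fl females, and by 137 in del/del and 146 in fl/fl males. Among miRNA hairpins under an internal peak in all 4 lists, the best-ranked was Mir128-2, a hairpin of the neuronal miR-128 in Arpp21, at chr9:112118636-112118711. Its fold enrichment was 7.98 in del/del and 8.4 in fl/fl females, and 9.86 in del/del and 9.66 in fl/fl males. The peak over Mir34b, of the p53-induced miR-34 family, in Btg4 had 4.93 in del/del and 5.88 in fl/fl females, and 6.49 in del/del and 7.69 in fl/fl males. A peak over a miRNA gene shows open DNA there and not that the miRNA was made.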
